A study of Homo sapiens with 18 samples.

Results

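The 36 genes described here encode aminoacyl-tRNA synthetases, and they were chosen by name from the 23250 gene symbols listed for each library. They fall into 2 classes. A symbol that ends in 2 marks a mitochondrial enzyme, which gave 16 members, and the other 20 are cytosolic or shared between compartments. All 36 passed the filter on low values, a value of at least 1 CPM, the depth-scaled read count, in at least 3 libraries, and were among 12769 genes tested. The RNA came from SUDHL6, Farage and SUDHL4, which are established human lines of diffuse large B cell lymphoma. In each line 3 libraries were made from cells treated with 79-6.1085, an inhibitor of the transcriptional repressor BCL6, at 10 µM for 12 h, and 3 from cells treated with DMSO, the vehicle, for 12 h. Each line is a single cultured population, and the labels name no other agent or allele. Nothing in the labels tells whether the replicates are separate cultures, and the p-values therefore reflect the spread among these libraries alone, which may be technical.

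An aminoacyl-tRNA synthetase joins an amino acid to the tRNAs that read its codons, and this charging step supplies both cytosolic and mitochondrial ribosomes. Most amino acids have one nuclear gene for each compartment. GARS and KARS each serve both compartments from a single gene, EPRS joins the glutamate and proline enzymes in one protein, and FARSA and FARSB are the subunits of cytosolic phenylalanyl-tRNA synthetase. Several cytosolic enzymes sit together in the multisynthetase complex. Uncharged tRNA is sensed by the kinase GCN2, which leads to translation of the transcription factor ATF4. Many cytosolic synthetase genes are known ATF4 targets, and ATF4 binds with C/EBP proteins at a composite DNA element called the C/EBP-ATF response element (CARE).

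Library depth over the listed genes ran from 6.29 to 25.49 M reads. Replicate 3 was the shallowest of both SUDHL6 groups, with 6.29 M reads in treated and 7.36 M in DMSO cells, and 3 reads in that treated library equal 0.362 CPM, which is under every member value given below. Replicate 1 of treated SUDHL6 and replicate 3 of DMSO SUDHL4 stood apart from the other libraries of their groups, and the calls of a treatment change or of a difference in response that changed without either library are named or counted below. All 7 B cell markers and all 5 germinal centre B cell markers were at 1 CPM or more in every library. The summed CPM of the B cell markers was lower in treated cells, at 2112 to 3204 in treated SUDHL6 against 5326 to 5626 in DMSO SUDHL6, 2100 to 2220 in treated against 3744 to 3908 in DMSO Farage, and 4273 to 4383 in treated against 6344 to 6815 in DMSO SUDHL4. T cell and epithelial markers summed to at most 2.45 and 0.355 CPM. The 5 myeloid markers summed to 14.4 to 20.9 CPM in treated against 4.82 to 5.86 CPM in DMSO SUDHL6, 7.51 to 8.41 in treated against 5.71 to 6.73 in DMSO Farage, and 10.6 to 13.6 in treated against 6.77 to 7.82 in DMSO SUDHL4. CD68 was the highest of them, while LYZ and CSF1R reached at most 0.997 and 0.553 CPM in any library and were at 0 in some. CD14 averaged 1.88, 1.88 and 1.54 CPM in treated SUDHL6, Farage and SUDHL4, against 0.215, 0.151 and 0.16 CPM in DMSO cells. ITGAM averaged 0.657, 0.619 and 0.322 CPM in treated against 0.0128, 1.32 and 0.233 CPM in DMSO cells of these lines. Of the fibroblast markers DCN stood out in SUDHL4, at a mean of 18.7 CPM in treated and 62.3 CPM in DMSO cells, while the 3 collagen genes of that list were under 1 CPM there, and COL1A1 averaged 1.18 CPM in treated and 6.48 CPM in DMSO Farage. Their part in the results was not tested, and fewer cells of a type and less RNA per cell cannot be told apart in these bulk libraries.

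Treatment split the cytosolic class and lowered most of the mitochondrial class. In the mean of the 3 lines, 10 of the 20 cytosolic members rose and 9 fell, beside 30.1% of all genes called higher and 53.8% called lower. Of the 16 mitochondrial members 2 rose and 13 fell. The median log2 change in CPM + 1 was 0.21 in the cytosolic and -0.89 in the mitochondrial class, against -0.24 over all genes. The cytosolic median lies between opposed groups and describes few of its members. Under median-of-ratios scaling, which moved the median of all genes from -0.24 to -0.05, the class medians were 0.46 and -0.66. The 10 cytosolic members that rose kept their call in all 27 settings run for the mean, the deposited scaling included, and at least 12 of the 13 mitochondrial members that fell did so in each.

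The 10 cytosolic members that rose were TARS at a log2 change of 1.44, GARS at 1.36, CARS at 1.29, WARS at 1.06, YARS at 1.03, MARS at 0.87, NARS at 0.66, AARS at 0.64, IARS at 0.52 and SARS at 0.51. Those that fell were VARS at -1.84, FARSB at -1.74, FARSA at -1.07, QARS at -0.71, RARS at -0.70, LARS at -0.64, KARS at -0.58, HARS at -0.45 and EPRS at -0.27. The call of EPRS was lost under median-of-ratios scaling, where its change was -0.03. DARS, the remaining one, was at -0.08 and was not called, but it was called higher at 0.16 under that scaling. In the mitochondrial class MARS2 at -2.14, TARS2 at -1.93, NARS2 at -1.88 and CARS2 at -1.79 fell furthest. SARS2 was at -1.35, VARS2 at -1.20, IARS2 at -1.08, FARS2 at -0.94, AARS2 at -0.83, PARS2 at -0.46, WARS2 at -0.42 and YARS2 at -0.37, all called lower. RARS2 fell by 0.21 with the deposited scaling, but its value was 0.03 under median-of-ratios scaling and no longer called. EARS2 rose by 0.25 and HARS2 by 0.11, and LARS2 at -0.13 was not called and turned to 0.10 under that scaling.

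**Figure D1:**
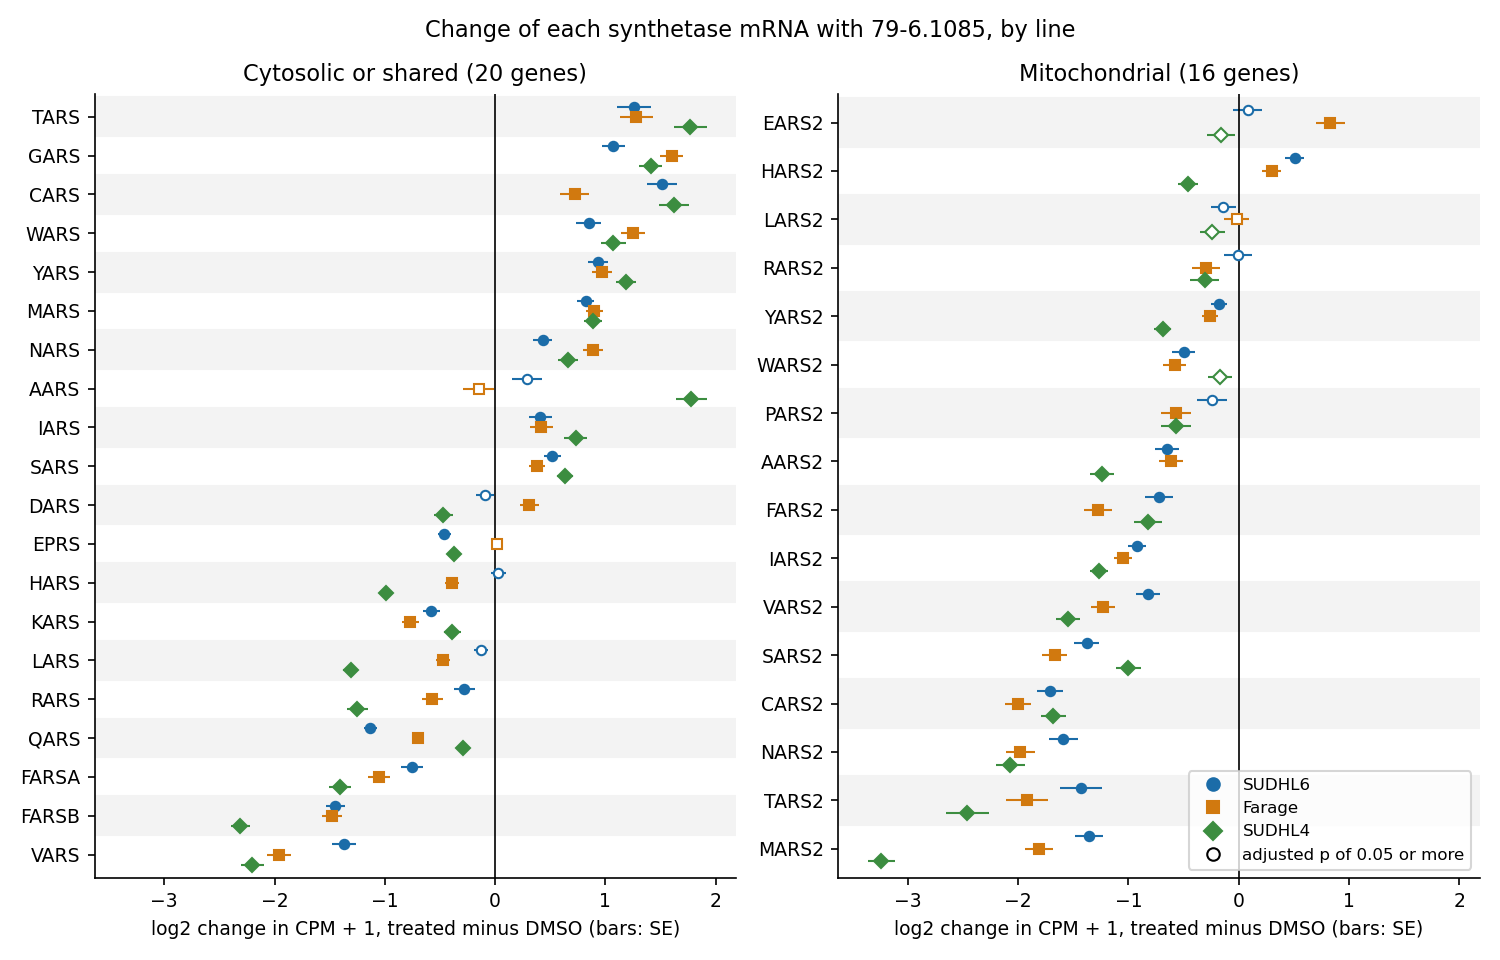
Log2 change in CPM + 1, treated minus DMSO, of the 20 cytosolic or shared and the 16 mitochondrial members in SUDHL6 (circles), Farage (squares) and SUDHL4 (diamonds), ordered by the mean of the lines, with SE bars; open symbols mark an adjusted p of 0.05 or more. Cytosolic members lie on both sides of 0 and nearly all mitochondrial members lie to the left, down to -3.24 for MARS2 in SUDHL4; DARS in SUDHL6, AARS in Farage, QARS in SUDHL4 and LARS2 in every line are among those that cross 0 under median-of-ratios scaling.

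The same pattern was seen in each line. In SUDHL6 9 cytosolic members rose and 7 fell, while 1 mitochondrial member rose and 11 fell, beside 26.8% and 41.3% of all genes. In Farage 10 cytosolic members rose and 8 fell, and 2 mitochondrial members rose and 13 fell, beside 25.4% and 46.5%. In SUDHL4 10 cytosolic members rose and 10 fell, and no mitochondrial member rose while 13 fell, beside 24.3% and 46.2%. Under median-of-ratios scaling the SUDHL4 cytosolic split was 10 higher and 6 lower, so that 62.5% in place of 50% of the calls were higher. The median of all genes in SUDHL4 went from -0.21 to -0.00 with it, and the all-gene shares above are those of the deposited scaling. The SUDHL6 call of IARS was lost with only the libraries of that line in the fit (log2 0.41, adjusted p = 0.0753), and that of WARS2 with edgeR (-0.29, adjusted p = 0.0628). The cytosolic medians were 0.16, 0.17 and 0.17 in SUDHL6, Farage and SUDHL4, and the mitochondrial medians were -0.69, -0.83 and -0.91. Under median-of-ratios scaling they were 0.34, 0.41 and 0.47 for the cytosolic and -0.51, -0.59 and -0.64 for the mitochondrial class. With the deposited scaling the cytosolic minus mitochondrial difference of medians was 0.85, 1.0 and 1.08, and it ranged from 0.81 to 0.93, 0.99 to 1.02 and 1.03 to 1.16 when single libraries were left out. Called in the same direction in all 3 lines were 9 cytosolic members that rose and 6 that fell, and 10 mitochondrial members that fell and none that rose, against 14.7% of all genes higher and 28.3% lower in all 3.

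Summed over a class, the mitochondrial members took a smaller part of the reads in treated cells. Their summed CPM was 521.3, 704.3 and 598.8 in treated and 971.7, 979.3 and 952.9 in DMSO SUDHL6. It was 394.3, 396.3 and 417.8 in treated and 683.1, 711.2 and 699.8 in DMSO Farage, and 314, 303.4 and 325.5 in treated and 696.2, 706.5 and 638.4 in DMSO SUDHL4. Treated and DMSO libraries did not overlap in any line. The cytosolic sum was 5243, 4870 and 4403 in treated and 4254, 4423 and 4219 in DMSO SUDHL6, where the groups overlapped. It was 5360 ± 121 in treated and 3973 ± 103 in DMSO Farage and 4501 ± 52.4 in treated and 3277 ± 134 in DMSO SUDHL4 (SD, n = 3 each), without overlap. As a share of the CPM of all 36 members the mitochondrial class held 11.2%, 6.99% and 6.53% in treated SUDHL6, Farage and SUDHL4, against 18.4%, 14.9% and 17.2% in DMSO cells. CPM is not corrected for transcript length, so these shares compare groups and not the molar amounts of the classes.

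**Figure D2:**
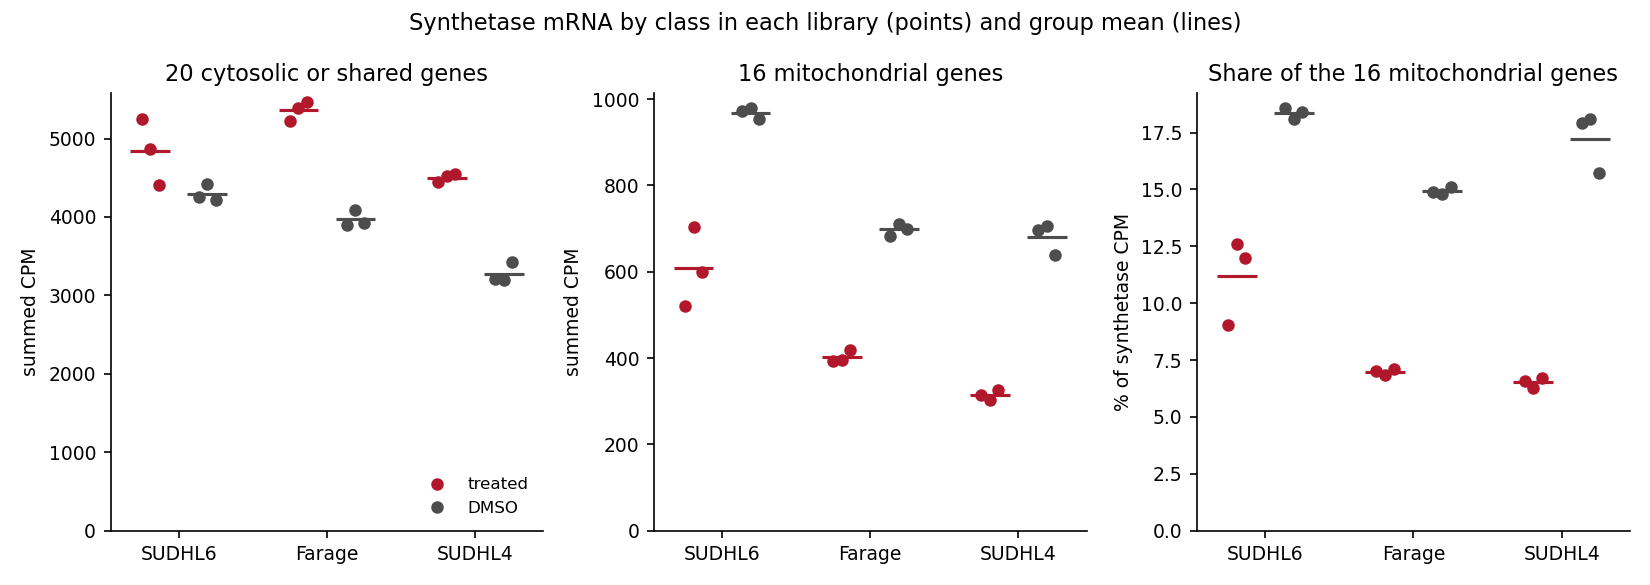
Summed CPM of the cytosolic or shared members (left), of the mitochondrial members (middle) and the mitochondrial share of all synthetase CPM in percent (right), with a point per library, lines at group means, and treated left of DMSO in each line. The mitochondrial sum is 303.4 to 704.3 CPM in treated and 638.4 to 979.3 CPM in DMSO libraries.

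Promoter windows of RefSeq (GRCh38.p14, 250 bases before to 50 after the start) were given for 30 of the 36 members, and a window is shown here where the cytosolic members that moved together share letters. The core of the CARE, TGATGNAA, searched on both strands, was found in 7 of 16 cytosolic genes with a window, in 1 of 14 mitochondrial genes and in 4.46% of all 27305 genes. The 7 cytosolic genes with a match all rose, with changes of 0.52 to 1.44 in the mean of the lines. In that mean 30.1% of all genes were called higher and 53.8% lower. The share that rose among all genes with a match was not counted, and a part of the motif in the changes was not tested. Of the 9 cytosolic genes with a window and no match, 2 rose, SARS and WARS, and 7 fell. With only the 250 bases before the start, AARS, GARS and IARS held a match, and the share over all genes was 3.89%. Each sequence below runs 5′ to 3′ on the strand of its gene, with the match in capitals, 14 bases before it and 8 after it.
AARS: accttttctcgcagTTGCATCAgccaagtt
CARS: ttccggggcggcggTTGCATCAgattctag
GARS: cgtttacgcggcgaTTTCATCAtgctccga
IARS: gcattttcagcgcgTTGCATCAcctccgtg
MARS: gaggccggttccggTTGCATCAgcgaggga
NARS: agatctacgctctcTGATGCAAcgccggaa
TARS: agggcgcctttcgaTTGCATCAgctggtcc
YARS2: cagatccacactgcTGATGGAAaaattaag

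The stretches lie at chr16:70289678-70289707 for AARS, chr11:3057410-3057439 for CARS, chr9:92293695-92293724 for IARS, chr18:57621807-57621836 for NARS and chr12:32756079-32756108 for YARS2, all on the minus strand. Those on the plus strand are chr7:30594831-30594860 for GARS, chr12:57488050-57488079 for MARS and chr5:33440953-33440982 for TARS. The letters TTGCATCA stood in AARS, CARS, IARS, MARS and TARS, and NARS held the same element on the other strand. Counted from the start, the first base of the match was at -187 in AARS, -33 in GARS, -13 in IARS, -4 in MARS, -2 in CARS, 3 in TARS and 15 in NARS. YARS2, at -197, was the mitochondrial gene with a match and had a change of -0.37. A match is a description of letters and not a bound site. The E-box CACGTG was found in 1 of 16 cytosolic genes, IARS, in 3 of 14 mitochondrial genes, CARS2, EARS2 and MARS2, and in 8.77% of all genes. The NRF1 letters GCGCATGCG were found in no cytosolic gene, in MARS2 and in 2.34% of all genes. DARS, LARS, VARS, YARS, AARS2 and VARS2 were not analysed here.

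**Figure D3:**
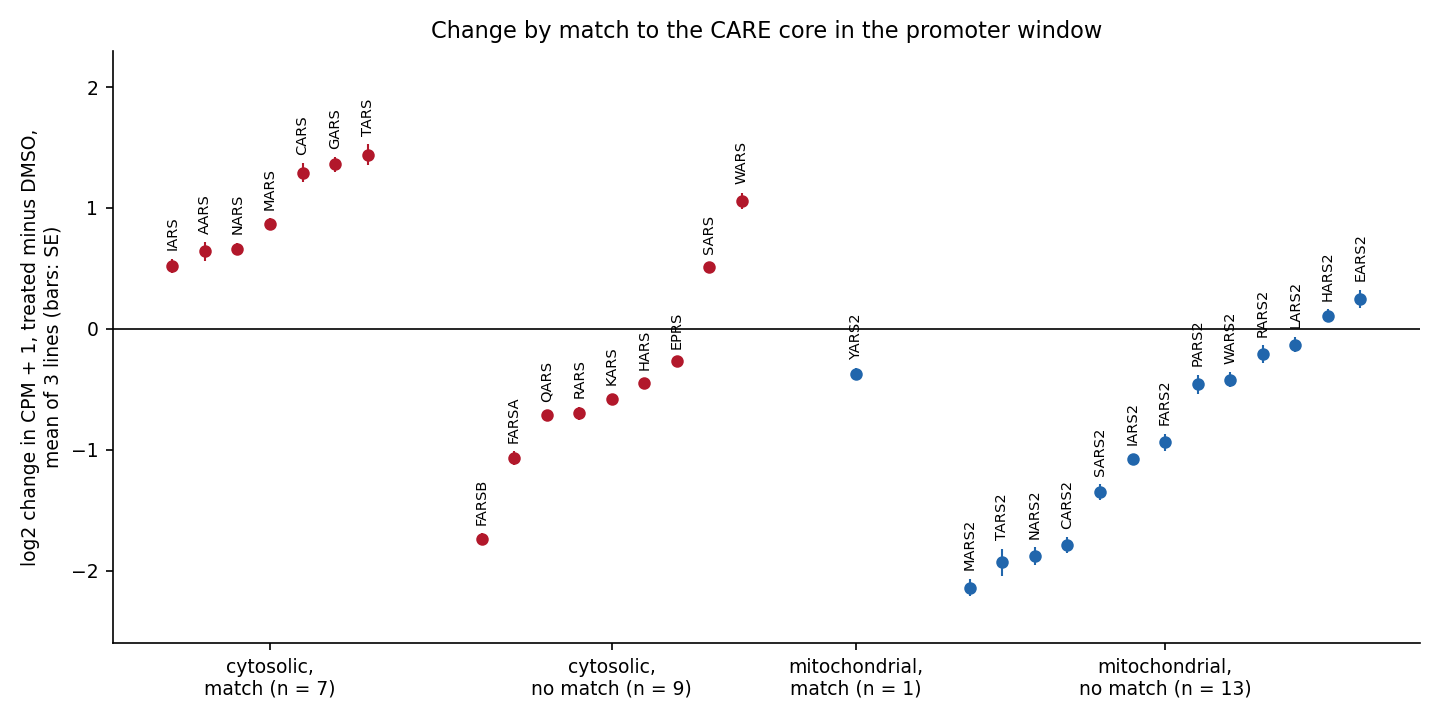
Log2 change in CPM + 1, treated minus DMSO, in the mean of the lines (points, SE bars) of the 30 members with a promoter window, by class and by match to the CARE core. All 7 cytosolic genes with a match lie above 0, and the 9 without one lie between -1.74 for FARSB and 1.06 for WARS; RARS2 and LARS2 cross 0 under median-of-ratios scaling.

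Among the cytosolic members that rose, GARS, the glycyl-tRNA synthetase of both compartments, had one of the smallest p-values. It had 592.7, 498.5 and 494 CPM in treated and 232.9, 287.5 and 231.7 CPM in DMSO SUDHL6. In Farage GARS had 580.1, 593.3 and 591.2 CPM in treated and 191, 197.9 and 189.5 CPM in DMSO cells, and in SUDHL4 681.6, 732.6 and 677.3 CPM against 237.4, 241.8 and 308.9 CPM. Every treated library was above every DMSO library of its line, and the mean change was 2.58-fold (log2 1.36, SE 0.06, adjusted p = 4.08e-12, limma). TARS, which charges tRNA with threonine, rose 2.40-fold in SUDHL6, 2.43-fold in Farage and 3.40-fold in SUDHL4. Fold changes are on the CPM + 1 scale.

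YARS, the tyrosyl enzyme, showed little spread between lines. It had 432.8, 387.4 and 346.3 CPM in treated and 190, 218.5 and 201.3 CPM in DMSO SUDHL6. YARS had 382.4, 390.8 and 398 CPM in treated and 197.1, 205.6 and 193.2 CPM in DMSO Farage, and 434, 466.7 and 445.3 CPM in treated and 176.2, 189.1 and 224.8 CPM in DMSO SUDHL4. The groups did not overlap in any line, with changes of 1.90-, 1.96- and 2.29-fold in SUDHL6, Farage and SUDHL4. CARS, the cysteinyl enzyme, had 295.8, 222.8 and 195.6 CPM in treated and 86.94, 90.54 and 68.54 CPM in DMSO SUDHL6. Its treated values were 185.7, 188.9 and 184.6 CPM and its DMSO values 108.9, 116.7 and 112 CPM in Farage, and 128.6, 130.5 and 131.9 CPM and 37.25, 38.92 and 50.18 CPM in SUDHL4. CARS rose in each line without overlap, by 2.86-fold in SUDHL6, 1.65-fold in Farage and 3.07-fold in SUDHL4.

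MARS, the methionyl enzyme of the multisynthetase complex, had 413.4, 402.9 and 347.2 CPM in treated and 212.9, 237.2 and 208.2 CPM in DMSO SUDHL6. Its values were 332.8, 339.7 and 350.7 CPM in treated and 176.3, 188.8 and 181 CPM in DMSO Farage, and 354.7, 349 and 382.9 CPM in treated and 180.9, 191.3 and 213 CPM in DMSO SUDHL4. The groups did not overlap, and the changes of 1.76-, 1.87- and 1.86-fold did not differ detectably among the lines (F-test, adjusted p = 0.76, limma). In RefSeq the MARS gene overlaps DDIT3, the stress factor CHOP, which rose by 3.40 on the log2 scale in the mean of the lines. DDIT3 averaged 162 ± 74.6, 86.6 ± 3.52 and 389 ± 44.6 CPM in treated SUDHL6, Farage and SUDHL4, against 12.2 ± 3.97, 11.6 ± 0.853 and 33.1 ± 28.7 CPM in DMSO cells (SD, n = 3 each). The counting's strand setting is not given in the sources used here, so reads of the 2 genes may not be separated, and the share of MARS reads that this touches was not tested. In all, another RefSeq gene overlaps 21 of the members.

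AARS, the alanyl enzyme, responded in a line-dependent way. Its treated values in SUDHL4 were 414, 401.1 and 435.5 CPM, and its DMSO values there were 104.4, 108.9 and 153.7 CPM. In SUDHL6 AARS had 454.5, 536.4 and 360.9 CPM in treated and 336.6, 403.3 and 351.8 CPM in DMSO cells, with overlap, and in Farage 226.7, 232.4 and 243.5 CPM in treated and 258.3, 266.4 and 255 CPM in DMSO cells. It rose 3.44-fold in SUDHL4 (log2 1.78, SE 0.137, adjusted p = 9.38e-09, limma), and this was 1.96 on the log2 scale without replicate 3 of DMSO SUDHL4. In SUDHL6 the log2 change of 0.29 missed the threshold (adjusted p = 0.0689) but passed it under median-of-ratios scaling (0.47, adjusted p = 0.00644), with replicate numbers as a block (0.29, adjusted p = 0.0183) and without both shallow SUDHL6 libraries (0.42, adjusted p = 0.0161). It also passed without replicate 3 of treated SUDHL6 (0.44), replicate 2 of DMSO SUDHL6 (0.37) or replicate 3 of DMSO SUDHL4 (0.29). In Farage the change of -0.15 was not called (adjusted p = 0.34) and was 0.09 under median-of-ratios scaling. The response in SUDHL4 exceeded that in Farage by 1.93 (adjusted p = 1.14e-06), and the SUDHL6 minus SUDHL4 difference was -1.49 (adjusted p = 2.84e-05).

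**Figure D4:**
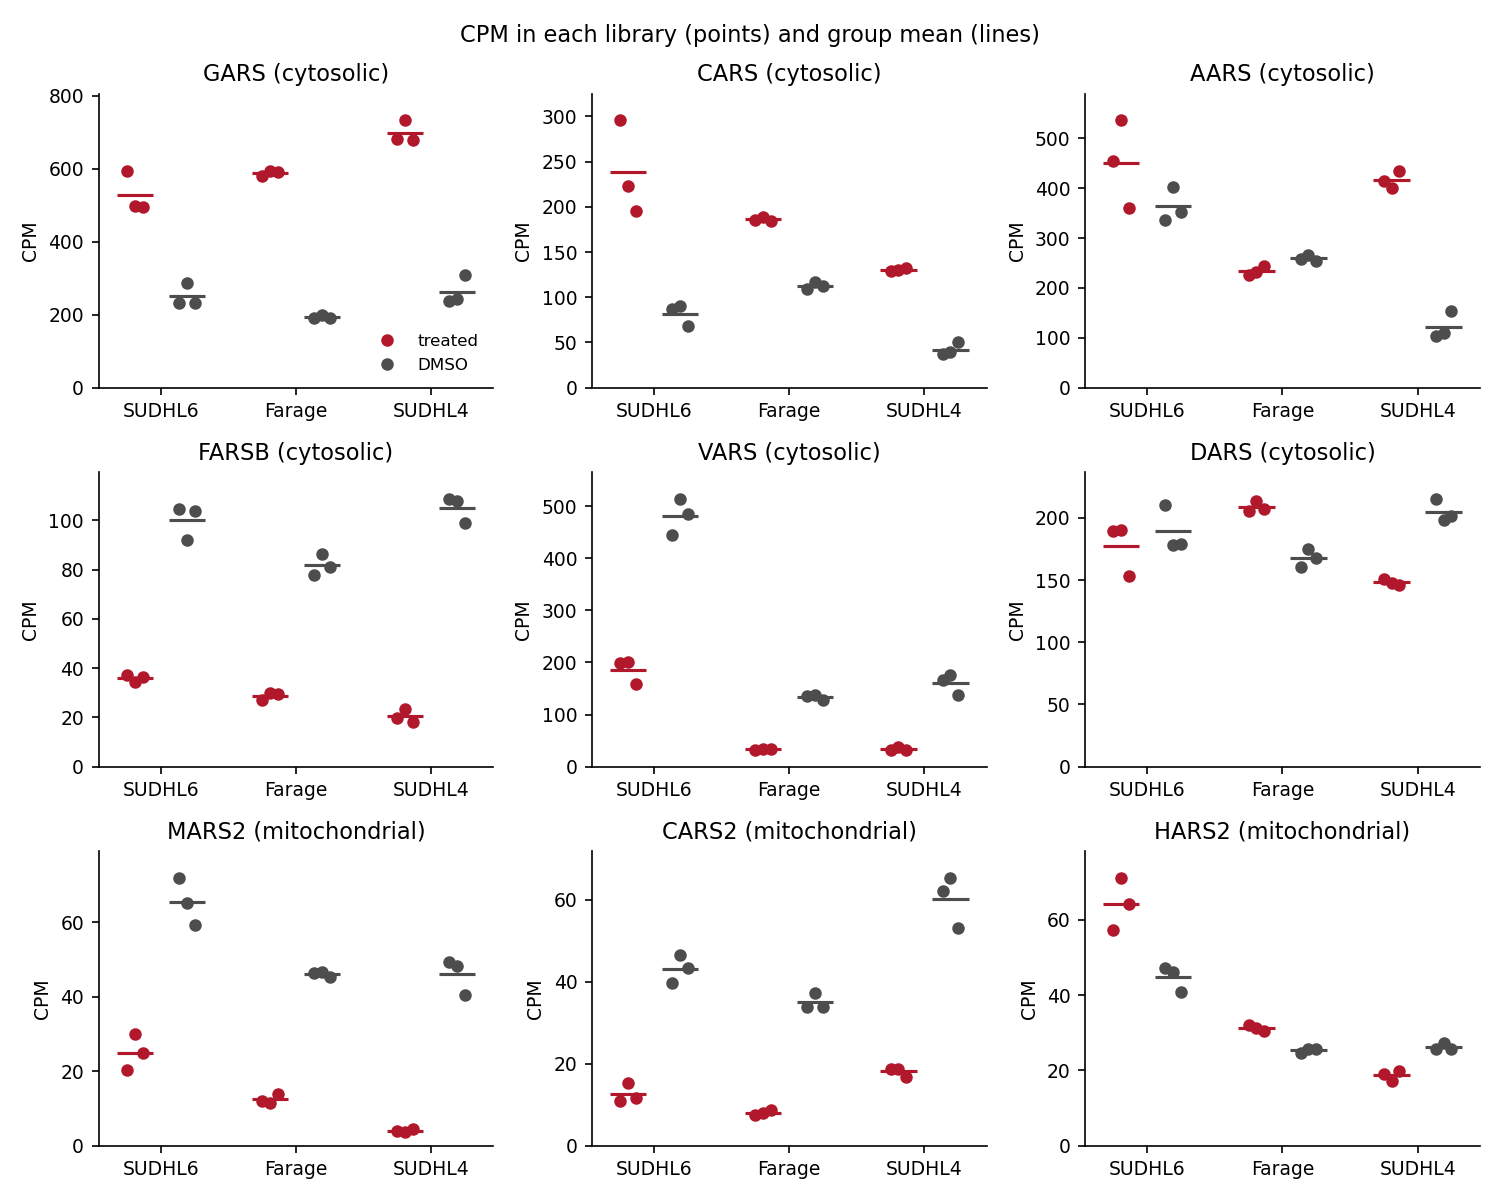
CPM of 9 members in each library (points) with group means (lines), treated left of DMSO in SUDHL6, Farage and SUDHL4; each panel has its own axis from 0. GARS and CARS are higher and FARSB, VARS, MARS2 and CARS2 lower in every treated library than in any DMSO library of the same line, while AARS, DARS and HARS2 differ by line, with the SUDHL6 change of DARS and the Farage change of AARS turning sign under median-of-ratios scaling.

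VARS, the valyl enzyme, fell furthest in the cytosolic class in the mean of the lines and in Farage, while FARSB fell further in SUDHL6 (-1.45 against -1.37 for VARS) and in SUDHL4 (-2.31 against -2.20). It had 199.1, 200.9 and 159.3 CPM in treated and 444.3, 513.4 and 484.6 CPM in DMSO SUDHL6. In Farage VARS had 32.48, 34.35 and 34.17 CPM in treated and 135.1, 138.2 and 128.3 CPM in DMSO cells, and in SUDHL4 32.39, 38.48 and 31.1 CPM against 167, 175.2 and 138.1 CPM. The groups did not overlap, at 0.388, 0.257 and 0.217 times the DMSO level in SUDHL6, Farage and SUDHL4. The subunits of phenylalanyl-tRNA synthetase fell together. FARSB, the beta subunit, had 37.39, 34.55 and 36.36 CPM in treated and 104.8, 92.24 and 104 CPM in DMSO SUDHL6. It had 27.11, 29.94 and 29.37 CPM in treated and 78.01, 86.47 and 81.12 CPM in DMSO Farage, and 19.96, 23.39 and 18.19 CPM in treated and 108.6, 107.9 and 99.05 CPM in DMSO SUDHL4. FARSB had the smallest p-value of the cytosolic class in the mean (log2 -1.74, SE 0.0504, adjusted p = 1.03e-13, limma).

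FARSA, the alpha subunit, had 86.48, 105.5 and 88.06 CPM in treated and 154.1, 165.7 and 150.3 CPM in DMSO SUDHL6. It had 49.65, 47.15 and 59.18 CPM in treated and 106.6, 114.3 and 104 CPM in DMSO Farage, and 29.44, 27.44 and 31.33 CPM in treated and 84.14, 85.05 and 71.08 CPM in DMSO SUDHL4. No treated library reached a DMSO library of its line for either subunit, and both fell furthest in SUDHL4. The SUDHL6 minus SUDHL4 difference of the response was 0.67 for FARSA (adjusted p = 0.00176) and 0.86 for FARSB (adjusted p = 6.79e-05). QARS, the glutaminyl enzyme of the complex, had the reverse order of lines. It had 171.6, 157.3 and 175.3 CPM in treated and 380.4, 362 and 361.1 CPM in DMSO SUDHL6, 197.5, 201.9 and 201.4 CPM in treated and 317.3, 336.9 and 327.1 CPM in DMSO Farage, and 141.1, 152.2 and 144.5 CPM in treated and 175.9, 183.6 and 176.5 CPM in DMSO SUDHL4. The change was -1.13 in SUDHL6, -0.70 in Farage and -0.29 in SUDHL4, where it became 0.01 under median-of-ratios scaling. For QARS the SUDHL6 minus SUDHL4 difference of the response was -0.84 (adjusted p = 1.82e-06).

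Within the cytosolic class LARS and HARS, the leucyl and histidyl enzymes, had with AARS the smallest p-values in the F-test among the lines. LARS had 80.42, 82.29 and 85.02 CPM in treated and 215.6, 209.2 and 196.2 CPM in DMSO SUDHL4. It had 134.7, 140 and 144.5 CPM in treated and 191.1, 198.2 and 191.1 CPM in DMSO Farage, and 201.6, 192.3 and 173 CPM in treated and 212.7, 210.4 and 197.3 CPM in DMSO SUDHL6, where the groups overlapped. LARS fell to 0.402 and 0.723 times the DMSO level in SUDHL4 and Farage and was not called in SUDHL6 (log2 -0.13, adjusted p = 0.0847). There it was called lower without replicate 1 of treated SUDHL6 (-0.18, adjusted p = 0.0268), and its value was 0.05 under median-of-ratios scaling. HARS had 35.56, 36.48 and 36.7 CPM in treated and 74.22, 75.55 and 68.84 CPM in DMSO SUDHL4. It had 59.42, 58 and 65.72 CPM in treated and 77.33, 85.16 and 78.51 CPM in DMSO Farage, and 89.79, 89.97 and 97.24 CPM in treated and 92.18, 88.65 and 91.14 CPM in DMSO SUDHL6, with overlap. HARS thus fell in SUDHL4 and Farage, with log2 changes of -0.99 and -0.39, and its SUDHL6 change of 0.03 was not called with the deposited scaling. Under median-of-ratios scaling, with edgeR and with DESeq2, HARS was called higher in SUDHL6. DARS, the aspartyl enzyme, was called in opposite directions with the deposited scaling, lower in SUDHL4 and higher in Farage.

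DARS had 151, 147.5 and 145.9 CPM in treated and 214.9, 198.3 and 201.7 CPM in DMSO SUDHL4. In Farage it had 205.6, 213.3 and 207.1 CPM in treated and 160.5, 175.1 and 167.8 CPM in DMSO cells, and in SUDHL6 189.4, 190 and 153 CPM against 210.2, 178.4 and 178.6 CPM. The groups overlapped in SUDHL6 only. The SUDHL4 call of DARS was lost under median-of-ratios scaling (-0.17), and the SUDHL4 minus Farage difference of its response was -0.78 (adjusted p = 8.16e-05). The rest of the cytosolic class that fell, EPRS, KARS and RARS, were at -0.46 to 0.02, -0.77 to -0.39 and -1.25 to -0.28 across the lines. EPRS was not called in Farage with the deposited scaling, where it was at 0.02, and its Farage value was 0.27 and called higher under median-of-ratios scaling. Among the rest that rose, WARS reached 2.38-fold in Farage, NARS 1.85-fold in Farage, and IARS and SARS 1.66- and 1.55-fold in SUDHL4.

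In the mitochondrial class MARS2, the methionyl enzyme, gave the largest change of all members in the mean of the lines and in SUDHL4. In SUDHL6 and in Farage other members, CARS2 and NARS2 among them, fell further. MARS2 had 3.947, 3.595 and 4.351 CPM in treated and 49.48, 48.23 and 40.5 CPM in DMSO SUDHL4. MARS2 had 11.96, 11.6 and 13.78 CPM in treated and 46.44, 46.57 and 45.28 CPM in DMSO Farage, and 20.22, 30.02 and 24.88 CPM in treated and 71.88, 65.13 and 59.33 CPM in DMSO SUDHL6. There was no overlap, and the level fell to 0.106, 0.285 and 0.388 times DMSO in SUDHL4, Farage and SUDHL6. The SUDHL6 response exceeded that of SUDHL4 by 1.88 (adjusted p = 1.29e-06). MARS2 was also the member with both E-box and NRF1 letters, shown in capitals in the stretch chr2:197705316-197705392 (GRCh38.p14, plus strand).
MARS2: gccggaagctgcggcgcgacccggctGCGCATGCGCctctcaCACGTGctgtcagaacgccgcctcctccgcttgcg

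CARS2, the cysteinyl enzyme of mitochondria, had 10.8, 15.32 and 11.72 CPM in treated and 39.75, 46.48 and 43.27 CPM in DMSO SUDHL6. It had 7.526, 7.872 and 8.617 CPM in treated and 33.72, 37.31 and 33.92 CPM in DMSO Farage, and 18.7, 18.76 and 16.85 CPM in treated and 62.21, 65.2 and 53.13 CPM in DMSO SUDHL4. NARS2, the asparaginyl enzyme, followed a like course. It had 7.744, 12.21 and 12.2 CPM in treated and 33.63, 35.23 and 32.34 CPM in DMSO SUDHL6, 7.982, 7.683 and 7.343 CPM in treated and 31.18, 36.64 and 31.72 CPM in DMSO Farage, and 9.37, 9.397 and 8.285 CPM in treated and 42.62, 42.21 and 37.92 CPM in DMSO SUDHL4. Neither gene overlapped between groups in any line. CARS2 fell to 0.306, 0.25 and 0.313 times and NARS2 to 0.332, 0.254 and 0.239 times the DMSO level in SUDHL6, Farage and SUDHL4. The responses did not differ detectably among the lines for CARS2 (F-test, adjusted p = 0.177, limma) or NARS2 (adjusted p = 0.0805), but for NARS2 they did without replicate 1 of treated SUDHL6 (adjusted p = 0.000582).

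IARS2, the isoleucyl enzyme, fell less far but with a small spread. It had 77.53, 102.9 and 90.47 CPM in treated and 170.2, 162.3 and 179.5 CPM in DMSO SUDHL6, 84.51, 89.07 and 90.16 CPM in treated and 184.1, 181.7 and 182.1 CPM in DMSO Farage, and 64.89, 61.29 and 66.88 CPM in treated and 158.7, 162.1 and 149.9 CPM in DMSO SUDHL4. Its groups did not overlap, and the mean change was -1.08 (SE 0.0476, adjusted p = 4.16e-12, limma). TARS2, SARS2, VARS2, FARS2 and AARS2 also fell in every line without overlap, at 0.182 to 0.654 times the DMSO level. PARS2, WARS2, RARS2 and YARS2 moved less, between -0.69 and -0.01 across the lines, and WARS2 in SUDHL4 and RARS2 in SUDHL6 were at 0.11 and 0.16 under median-of-ratios scaling. PARS2 was not called in SUDHL6 (log2 -0.24, adjusted p = 0.13), but it was called lower without replicate 2 of treated or replicate 3 of DMSO SUDHL6, at -0.39 to -0.34. The SUDHL6 call of YARS2 (log2 -0.18, adjusted p = 0.0481) was lost with replicate numbers as a block (adjusted p = 0.0831), with edgeR, where it was 0.01, and when any 1 of 14 of the 18 libraries was left out, at -0.18 to -0.12. It was kept without replicate 3 of treated SUDHL6, replicate 3 of treated or 2 of DMSO Farage, or replicate 3 of DMSO SUDHL4. The calls of RARS2 in Farage and SUDHL4 (adjusted p = 0.0441 and 0.0415) were lost without 10 and 8 of the 18 libraries, among them replicate 3 of DMSO SUDHL4 (adjusted p = 0.0517 and 0.095), and under median-of-ratios scaling (-0.07 and -0.02). The SUDHL6 call of RARS was lost without replicate 1 or 2 of treated or replicate 1 of DMSO SUDHL6 (-0.21, -0.22 and -0.23) and under median-of-ratios scaling (-0.10).

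HARS2, EARS2 and LARS2 stood outside the fall of their class. HARS2, the histidyl enzyme, had 57.22, 71.1 and 64.26 CPM in treated and 47.34, 46.25 and 40.91 CPM in DMSO SUDHL6. It had 32.19, 31.34 and 30.54 CPM in treated and 24.68, 25.64 and 25.68 CPM in DMSO Farage, but 19.07, 17.19 and 19.9 CPM in treated and 25.58, 27.23 and 25.62 CPM in DMSO SUDHL4. The groups did not overlap in any line, with a rise of 1.42-fold in SUDHL6 (adjusted p = 7.08e-05) and 1.23-fold in Farage (adjusted p = 0.0056) and a fall to 0.726 times in SUDHL4 (adjusted p = 0.000145). The mean of the lines, 0.11, was called at an adjusted p of 0.0445, and that call was lost with replicate numbers as a block (0.11, adjusted p = 0.0693), with a pseudocount of 0.25 and when any 1 of 12 of the 18 libraries was left out. Those were replicates 2 and 3 of treated and 3 of DMSO SUDHL6, replicates 1 and 2 of treated and 1 to 3 of DMSO Farage, and replicates 1 and 3 of both SUDHL4 groups, at 0.09 to 0.12. The SUDHL4 call was lost with edgeR (-0.16, adjusted p = 0.0703). The SUDHL6 response exceeded that of SUDHL4 by 0.97 (adjusted p = 2.07e-05). In HARS the same difference was 1.01 (adjusted p = 1.05e-06). The change was highest in SUDHL6 and lowest in SUDHL4 for both histidyl genes. For HARS2 the SUDHL6 minus Farage difference of 0.21 was not called (adjusted p = 0.197, limma). That order of lines was not particular to this pair, and was seen in LARS, RARS, VARS, MARS2 and TARS2 among others.

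HARS and HARS2 lie head to head on chromosome 5, and their RefSeq promoter windows share 184 bases. The stretch between their starts is shown on the plus strand of chr5:140691361-140691464 (GRCh38.p14), with the 84 bases between the starts in capitals and 10 bases on each side. HARS is read to the left of it and HARS2 to the right.
HARS2: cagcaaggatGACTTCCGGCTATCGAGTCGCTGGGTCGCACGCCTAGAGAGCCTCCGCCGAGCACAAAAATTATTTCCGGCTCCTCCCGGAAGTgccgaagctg

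EARS2, the glutamyl enzyme, was called higher in Farage. It had 55.03, 55.74 and 65.51 CPM in treated and 30.11, 33.8 and 33.67 CPM in DMSO Farage, without overlap, a rise of 1.78-fold (adjusted p = 2.39e-05, limma). In SUDHL6 it had 43.45, 66.3 and 49.4 CPM in treated and 53.85, 53.8 and 41.77 CPM in DMSO cells, with overlap, and in SUDHL4 33.5, 33.71 and 35.04 CPM in treated and 37.73, 39.2 and 37.32 CPM in DMSO cells. Neither change was called (log2 0.08 and -0.16), and the SUDHL4 value was 0.14 under median-of-ratios scaling. The response minus that of Farage was -0.75 in SUDHL6 (adjusted p = 0.00407) and -0.99 in SUDHL4 (adjusted p = 0.000475). LARS2, the leucyl enzyme, had 45.6, 68.52 and 67.4 CPM in treated and 64.48, 64.94 and 67.58 CPM in DMSO SUDHL6, 48.45, 50.02 and 51.6 CPM in treated and 50.7, 49.62 and 51.54 CPM in DMSO Farage, and 45.12, 42.86 and 46.01 CPM in treated and 50.72, 55.29 and 53.13 CPM in DMSO SUDHL4. In the main test no change of LARS2 was called in a line or in the mean. The mean was called lower without both shallow SUDHL6 libraries (-0.16, adjusted p = 0.035, limma) and without replicate 2 or 3 of treated SUDHL6, at -0.17 to -0.16. With edgeR it was called higher. In Farage LARS2 was called higher under median-of-ratios scaling, with edgeR and with DESeq2, so the direction of its calls depended on the setting. Its SUDHL4 change of -0.24 was called when any 1 of the treated SUDHL6 libraries was left out, and its low treated SUDHL6 value was that of replicate 1.

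The classes can be set against each other amino acid by amino acid, in 17 pairings of a cytosolic with a mitochondrial gene. In the mean of the lines all 9 cytosolic members that rose and have a mitochondrial counterpart stood over a counterpart that fell. The distance was 3.37 for TARS and TARS2, 3.08 for CARS and CARS2, 3.01 for MARS and MARS2, 2.54 for NARS and NARS2, 1.86 for SARS and SARS2 and 1.60 for IARS and IARS2. It was 1.48 for AARS and AARS2, 1.47 for WARS and WARS2 and 1.40 for YARS and YARS2. EPRS and PARS2 both fell and differed by 0.19. In the other pairings the cytosolic change was the lower one, with a difference of -0.13 for FARSA and -0.81 for FARSB against FARS2, -0.49 for RARS, -0.50 for LARS, -0.52 for EPRS against EARS2, -0.56 for HARS and -0.64 for VARS. The cytosolic change was the higher one in 10 of 17 pairings in SUDHL6, 11 in Farage and 10 in SUDHL4. These distances were not tested.

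**Figure D5:**
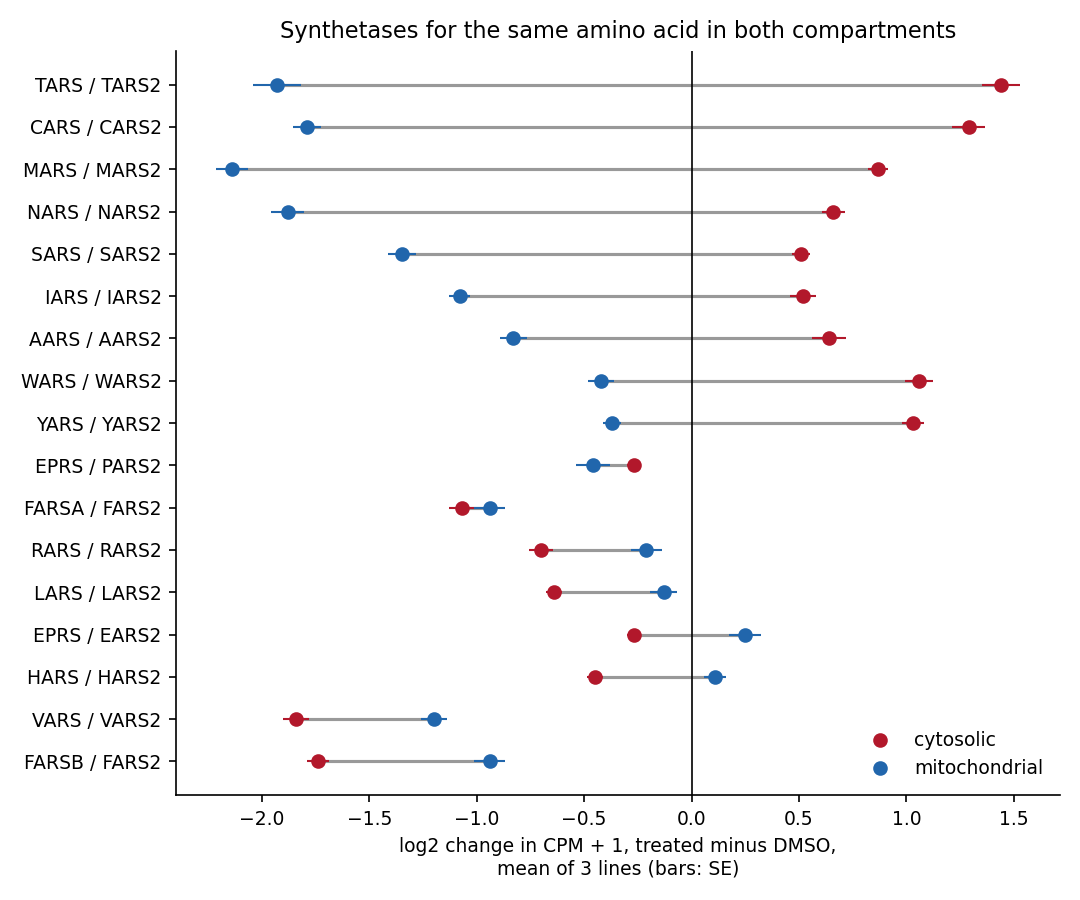
Log2 change in CPM + 1, treated minus DMSO, in the mean of the lines for the cytosolic and the mitochondrial synthetase of the same amino acid, with SE bars, ordered by their difference. The upper 9 pairings have a cytosolic gene above 0 and a mitochondrial gene below 0, and TARS and TARS2 lie 3.37 apart; RARS2 and LARS2 cross 0 under median-of-ratios scaling.

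Of the 8 cytosolic members in the multisynthetase complex 2 rose in the mean, IARS and MARS, and 5 fell, with a median of -0.42, beside 30.1% of all genes higher and 53.8% lower. Under median-of-ratios scaling 3 rose, with DARS, and 4 fell, without EPRS, with a median of -0.18. Of the 12 outside it 8 rose and 4 fell, with a median of 0.65, and the counts were the same under that scaling, with a median of 0.89. Catalytic classes were set by amino acid letter, so EPRS was counted in class I, although its proline part is of class II. Of the 10 cytosolic members of class I 5 rose and 5 fell, and of the 10 of class II 5 rose and 4 fell. Under median-of-ratios scaling 5 rose and 4 fell in class I, and 6 rose and 4 fell in class II. In the mitochondrial class 7 of 9 members of class I and 6 of 7 of class II fell, and 6 of 9 and 6 of 7 under that scaling. These are counts, the all-gene shares beside them are those of the deposited scaling, and the differences between subgroups were not tested.

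The response differed among the lines for 14 of the 20 cytosolic and 10 of the 16 mitochondrial members in an F-test, beside 55.9% of all genes. Of the 10 cytosolic members that rose in the mean, 6 were not called in this test, namely IARS, MARS, SARS, TARS, WARS and YARS, and all 9 that fell were called. Without replicate 1 of treated SUDHL6 the test also called IARS, TARS, LARS2, NARS2 and WARS2, and without replicate 3 of DMSO SUDHL4 it called TARS and YARS and no longer KARS (adjusted p = 0.0554). For SUDHL6 minus Farage 9 cytosolic and 3 mitochondrial members were called, beside 36.8% of all genes. The difference SUDHL4 minus Farage was called for 10 and 7 members, beside 37.4%, and SUDHL6 minus SUDHL4 for 9 and 7, beside 35%. Without replicate 1 of treated SUDHL6 these cytosolic and mitochondrial counts were 10 and 6, 12 and 10, and 14 and 10. Without replicate 3 of DMSO SUDHL4 they were 11 and 3, 14 and 7, and 12 and 7. All 7 mitochondrial members called for SUDHL6 minus SUDHL4 had the lower response in SUDHL4. With only the compared lines in the fit, 13 mitochondrial members in place of 7 were called for SUDHL4 minus Farage and 1 in place of 3 for SUDHL6 minus Farage.

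In DMSO the lines already differed in their levels. Against Farage, SUDHL6 had 9 cytosolic members higher and 4 lower and 9 mitochondrial members higher and none lower, beside 37.5% of all genes higher and 33.8% lower. With median-of-ratios scaling 4 in place of 9 cytosolic members were higher in SUDHL6 than in Farage, while the all-gene shares given are those of the deposited scaling. SUDHL4 minus Farage gave 5 cytosolic members higher and 9 lower and 2 mitochondrial members higher and 3 lower, beside 31.1% and 36%. SUDHL6 minus SUDHL4 gave 9 cytosolic members higher and none lower and 11 mitochondrial members higher and 2 lower, beside 38.5% and 30.1%. The members lower in SUDHL6 than in SUDHL4 were CARS2 and YARS2.

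The largest differences in DMSO were seen in WARS, VARS, AARS2, VARS2, AARS and SARS2, which are named for the size of their values. WARS, the tryptophanyl enzyme and an interferon-induced gene, had 69.92, 70.04 and 65.97 CPM in SUDHL6 and 75.16, 77.39 and 95.2 CPM in SUDHL4, against 388.1, 420 and 398.3 CPM in Farage. The log2 difference from Farage was -2.53 in SUDHL6 (adjusted p = 2.82e-12) and -2.28 in SUDHL4 (adjusted p = 1.24e-11), and with treatment it reached 916, 966.4 and 988.9 CPM in Farage. VARS was higher in SUDHL6 than in Farage by 1.83 and than in SUDHL4 by 1.58. AARS2 was higher in SUDHL6 than in Farage by 1.59 and than in SUDHL4 by 1.74, VARS2 by 0.93 and 1.65, and SARS2 by 1.38 and 1.48. The SUDHL4 minus Farage difference of AARS was -1.10, and AARS was higher in SUDHL6 than in SUDHL4 by 1.58, so its DMSO level was lowest in SUDHL4. AARS rose there with treatment, but that change is measured from this same level, and a link between them was not tested.

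Other gene lists are given by their mean change over the lines, for which 30.1% of all genes rose and 53.8% fell, with a median of -0.24. These shares are those of the deposited scaling. Under median-of-ratios scaling the median of all genes was -0.05, and the shares are not given here. Of the scaffold proteins of the multisynthetase complex AIMP2 fell by 0.69 and EEF1E1 by 1.01 on the log2 scale, while AIMP1 rose by 0.10 in the mean and by 0.32 in Farage. A further 13 genes were listed with tRNA charging, though not all of them encode charging enzymes. Of these 2 rose and 10 fell in the mean, with a median of -0.58. Under median-of-ratios scaling 4 rose and 8 fell, with a median of -0.36. The largest changes were in C14orf126 (DTD2) at -1.66, AARSD1, an editing protein, at -1.47 and DTD1, which removes wrongly charged D-amino acids, at -1.20. Of 15 mitochondrial translation factors 2 rose and 11 fell, with a median of -0.46, and 3 rose and 9 fell, with a median of -0.23, under median-of-ratios scaling. Among them TSFM, an elongation factor, at -1.01, ICT1, a release factor of the mitochondrial ribosome, at -0.83 and PTCD3 at -0.74 fell most.

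Of 33 genes of tRNA maturation and export 6 rose and 22 fell, with a median of -0.59, and 10 rose and 19 fell, with a median of -0.37, under median-of-ratios scaling. POP5, a subunit of RNase P, fell by 2.20 and PUS7, a pseudouridine synthase, by 2.04 on the log2 scale. The GCN2 and ATF4 list moved the other way, with 22 of 34 tested genes higher and 10 lower and a median of 1.05 beside -0.24 over all genes. ATF3, a stress-induced transcription factor, rose by 4.30, SLC7A11, the cystine transporter, by 4.27 and PPP1R15A, a regulatory subunit of the eIF2 phosphatase, by 3.40. ATF4 itself, named after its values were seen, averaged 527 ± 72.8, 451 ± 14.3 and 421 ± 19.5 CPM in treated SUDHL6, Farage and SUDHL4, against 280 ± 25.1, 156 ± 9.82 and 203 ± 9.13 CPM in DMSO cells (SD, n = 3 each). EIF2AK4, which encodes GCN2 and was named after its values were seen too, was at -0.83 in the mean of the lines.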

How the data were processed

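RNA-seq of 18 libraries was used, 3 per group, grouped by the labels. The authors deposited CPM, read counts scaled to depth, for 23250 gene symbols per library. The submitters' processing notes name STAR and hg19, the labels' protocols name a TruSeq kit, and 1 label names Rsubread. Strand setting, annotation release and tool versions were not given in the sources used here. The deposited CPM were whole multiples of 1 read in 100% of values within 0.01 reads, and the listed genes made up 74.6 to 80.7% of the total to which they were scaled. No pair of replicates agreed within sampling noise (chi-square per degree of freedom 1.818 to 50.17).

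The main test was limma 3.58.1 (R 4.3.3) with an intensity trend on log2(CPM + 1), without further scaling, for genes with at least 1 CPM in at least 3 libraries. A 6-group model left 12 residual degrees of freedom. It gave each line's change, their mean, differences of responses between lines, an F-test among lines and differences between DMSO cells. All tests were two-sided, and calls were made at 0.05 after Benjamini-Hochberg adjustment over 12769 genes. With a pseudocount of 1 the change of a low gene is understated. The script was tested on simulated data. The comparisons of lines with each other share libraries, as do the responses compared with Farage.

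In SUDHL6 same-numbered treated and DMSO libraries deviated together (correlations of their deviations from the group means 0.425, 0.488 and 0.632, against -0.489 to 0.108 for other numbers). The samples there may be paired by number, but the labels state no pairing. Replicate 3 was the shallowest of both SUDHL6 groups, and the part of depth in these correlations was not tested. The main test has no term for a pairing, and the replicate block is an alternative that has one.

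The members and lists were chosen with earlier results of these data known. Values in every library are given, per class, for up to 4 members per direction with the smallest p in the mean, the 3 with the smallest F-test p, the 2 with the largest p, and members called in opposite directions. From each other list up to 3 called genes of largest change are named, apart from a gene not reported here, and others are marked. Of the GCN2 and ATF4 list 35 of 36 symbols were matched and 34 tested.

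As alternatives the pseudocount was set to 0.25, the filter was dropped (19369 genes) or raised to a mean of 5 CPM (9678 genes), samples were scaled by median-of-ratios, replicate numbers entered as a block (which left 6 residual degrees of freedom), the fit was limited to the compared lines, recovered reads were tested with DESeq2 1.42.0 and with edgeR 4.0.16 (TMM scaling, quasi-likelihood), each library was left out, and, chosen after seeing the data, both shallow SUDHL6 libraries were left out. Promoter sequences are RefSeq GRCh38.p14, matched through RefSeq symbols and synonyms, and any window of a gene counted. They are another build than that of the reads and were used for their letters only.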

Additional observations from a re-analysis of the deposited data

Results flagged for a closer look

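For 24 of the 36 members the response to treatment differed among the lines in the F-test, beside 55.9% of all genes. Each is given with the pair of lines whose called difference had the smallest p, on the log2 scale. The response was higher in SUDHL6 than in SUDHL4 by 1.88 in MARS2, 1.18 in LARS, 1.03 in TARS2, 1.01 in HARS, 0.97 in HARS2, 0.97 in RARS, 0.86 in FARSB, 0.83 in VARS, 0.72 in VARS2, 0.67 in FARSA, 0.51 in YARS2 and 0.35 in IARS2. QARS went the other way, with a SUDHL6 minus SUDHL4 difference of -0.84.

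Between SUDHL4 and Farage the response was higher in SUDHL4 by 1.93 in AARS, 0.90 in CARS, 0.68 in SARS2 and 0.38 in KARS. The SUDHL4 minus Farage difference was -0.99 in EARS2, -0.78 in DARS and -0.63 in AARS2. Between SUDHL6 and Farage the SUDHL6 minus Farage difference was 0.56 in FARS2, -0.53 in GARS, -0.48 in EPRS and -0.46 in NARS. The call of IARS2 in the F-test had an adjusted p of 0.0447 and was lost with no filter, median-of-ratios scaling, the replicate block, edgeR and DESeq2, at adjusted p of 0.0523, 0.114, 0.0629, 0.139 and 0.0863, and when most single libraries were left out.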

How the results depend on the processing

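The difference between the class medians moved by less than 1 SD in every line under each alternative run. That SD is the spread of the difference among libraries of a group, pooled by line (0.142, 0.0383 and 0.11 in SUDHL6, Farage and SUDHL4). Scaling shifts both medians nearly alike, and the filters, the block and the limit to compared lines leave each member's change as it is. Under these settings the difference could hardly move, so its steadiness there says little. The 10 cytosolic members that rose in the mean kept their calls. Scaling moved the most values, because it shifts all genes of a line together: the median over all genes went from -0.13, -0.22 and -0.21 in SUDHL6, Farage and SUDHL4 to -0.00, -0.04 and -0.00 under median-of-ratios scaling. With that scaling, edgeR and DESeq2 the count of mitochondrial members higher in SUDHL6 was 2 in place of 1, and that of cytosolic members lower in SUDHL4 was 6 in place of 10. In the DMSO comparisons the same 3 settings gave 4, 5 and 5 cytosolic members higher in SUDHL6 than in Farage in place of 9, 1 mitochondrial member lower in place of 0, and 3 cytosolic members lower in SUDHL6 than in SUDHL4 in place of 0 (1 without both shallow libraries). Mitochondrial members higher in SUDHL4 than in Farage in DMSO were 4 in place of 2 with edgeR, DESeq2 and only the compared lines. With only the compared lines 1 in place of 3 mitochondrial members differed in response between SUDHL6 and Farage and 13 in place of 7 between SUDHL4 and Farage. Mitochondrial members higher in the mean were 1 in place of 2 with a pseudocount of 0.25, the replicate block and without both shallow libraries.

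With median-of-ratios scaling, edgeR and DESeq2 in turn, these changes turned sign: in SUDHL6 DARS (0.08, 0.11, 0.10), LARS (0.05, 0.07, 0.06), LARS2 (0.04, 0.06, 0.05) and RARS2 (0.16, 0.21, 0.20); in Farage AARS (0.09, 0.09, 0.10) and LARS2 (0.22, 0.22, 0.24); in SUDHL4 QARS (0.01, 0.03, 0.02), EARS2 (0.14, 0.16, 0.15), LARS2 (0.05, 0.07, 0.06) and WARS2 (0.11, 0.14, 0.13); and in the mean DARS (0.16, 0.17, 0.17), LARS2 (0.10, 0.12, 0.12) and RARS2 (0.03, 0.05, 0.04). YARS2 in SUDHL6 was 0.01 with edgeR. Without both shallow libraries HARS was -0.01 and RARS2 0.05 in SUDHL6. Over the libraries left out in turn LARS2 in Farage ran from -0.04 to 0.01 and, in SUDHL6, DARS from -0.15 to 0.01, HARS from -0.01 to 0.04, EARS2 from -0.09 to 0.21, LARS2 from -0.24 to 0.05 and RARS2 from -0.11 to 0.15. In the same way, mitochondrial members higher in the mean were 1 to 2, mitochondrial members whose response differed between SUDHL6 and Farage 1 to 6, cytosolic members whose response differed between SUDHL6 and SUDHL4 8 to 14, and cytosolic members lower in SUDHL6 than in SUDHL4 in DMSO 0 to 1. The causes were otherwise not tested. With only the 250 bases before the start 3 in place of 7 cytosolic promoters held the CARE core, since fewer bases were searched.

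The replicate block gave 10 cytosolic members higher and 9 lower and 14 mitochondrial members lower in the mean. In Farage (correlations 0.168, -0.128 and -0.189) and SUDHL4 (-0.0535, 0.0344 and -0.0728) same-numbered libraries did not consistently deviate together, and not every library correlated best with its own number.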
